A study of Caenorhabditis elegans with 32 samples.

Results

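The fbxb and fbxc genes are families of F-box protein genes of Caenorhabditis elegans, and the measurement described here is the amount of 22G RNA that maps to each of them. The members were all protein-coding genes whose name begins with fbxb- or fbxc- in the WBcel235 annotation, which gave 104 fbxb and 48 fbxc genes of the 46932 genes counted. Small RNA was taken from whole wild-type (WT) and hrde-1 worms in 4 generations, the parents (P0) and their descendants F1, F2 and F3. Every generation of both genotypes exists under a normoxia and under a hypoxia label, each with a pair of libraries, which makes 16 groups and 32 libraries. The labels' protocols describe hypoxia as 16 h in 0.1% oxygen, at 20 °C, for worms of the L4 stage (the last larval stage), followed by a return to ambient air. The labels do not state which generations were exposed, so hypoxia at F1 to F3 is read here as the label alone. The allele of hrde-1 is not given in the sources used here, and no label says that the replicates were separate cultures, so p-values cover the spread between libraries only, and that spread may be technical.

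An F-box protein is the part of an SCF ubiquitin ligase that recognises the substrate, and it joins a cullin through a SKP1-related adaptor. Nematodes carry a large and fast-evolving set of these genes, many in tandem clusters, and most fbxb and fbxc genes have no individual role that is named here. 22G RNAs are small RNAs that begin with G and lie antisense to their targets. They are made by RNA-dependent RNA polymerases and are loaded into worm-specific Argonaute proteins. HRDE-1 is the nuclear Argonaute of the germline and is known for carrying silencing from parents to offspring. A 22G level therefore reports small RNA directed at a gene and not the gene's own transcript. In whole worms, fewer germ cells and less 22G RNA per cell cannot be told apart.

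Depth was 438436 to 2578063 22G counts per library. The P0 WT normoxia libraries stood apart, with 22G RNA at 9.27% and 6.15% of the counts of the 4 small RNA classes against 14.9% to 45.9% elsewhere. The F3 hrde-1 normoxia libraries had the fewest genes with a count, 7428 and 6356. The hrde-1 gene itself held 360 to 478 CPM (counts per 1e6 22G counts, after TMM scaling) in WT normoxia and 257 to 567.7 in hrde-1 normoxia. Antisense 22G counts do not check the genotype of the worms.

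Most of the 22G RNA of these families fell on a handful of genes. Among the members, 131 had at least 1 count and 21 had none, and 77 (57 fbxb and 20 fbxc) passed the filter on low counts in the fit over all libraries. The 75 that did not pass had at most 125 counts over all libraries and at most 2.79 CPM on average. All members together held 281310 counts. The leading gene took 32.5% of them, the leading 5 took 70.4% and the leading 10 took 79.7%. The median level of the tested members was 9.32 CPM per kb of exon against 15.5 for all genes tested. It was 8.35 for the tested fbxb genes and 19.1 for the tested fbxc genes.

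The gene with the highest level was fbxc-43 (II:4234903-4235996, WBcel235), at 1952 CPM per kb of exon over all libraries. That placed it at percentile 99.1 of the genes tested, with 90 genes above it. Its neighbour fbxc-44, 507 bp away, reached 106 CPM per kb. The next members in level per length were fbxb-97 (II:1846977-1848161) at 824, fbxb-100 at 456, fbxb-85 (III:10847614-10848963) at 402 and fbxb-24 (III:11908960-11909948) at 397 CPM per kb. Lower levels per kb followed in fbxb-45 at 147, fbxb-7 at 90.8, fbxb-22 at 88.6 and fbxb-46 at 81.8. Counting by strand was not stated. fbxb-100 and fbxb-24 (faah-4), and fbxb-99 among the members named later, each overlap a gene on the other strand, and reads of such pairs could not be told apart. fbxb-18, fbxb-53 and fbxc-26, also named later, each overlap a gene on the same strand, so their counts are uncertain too.

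**Figure D1:**
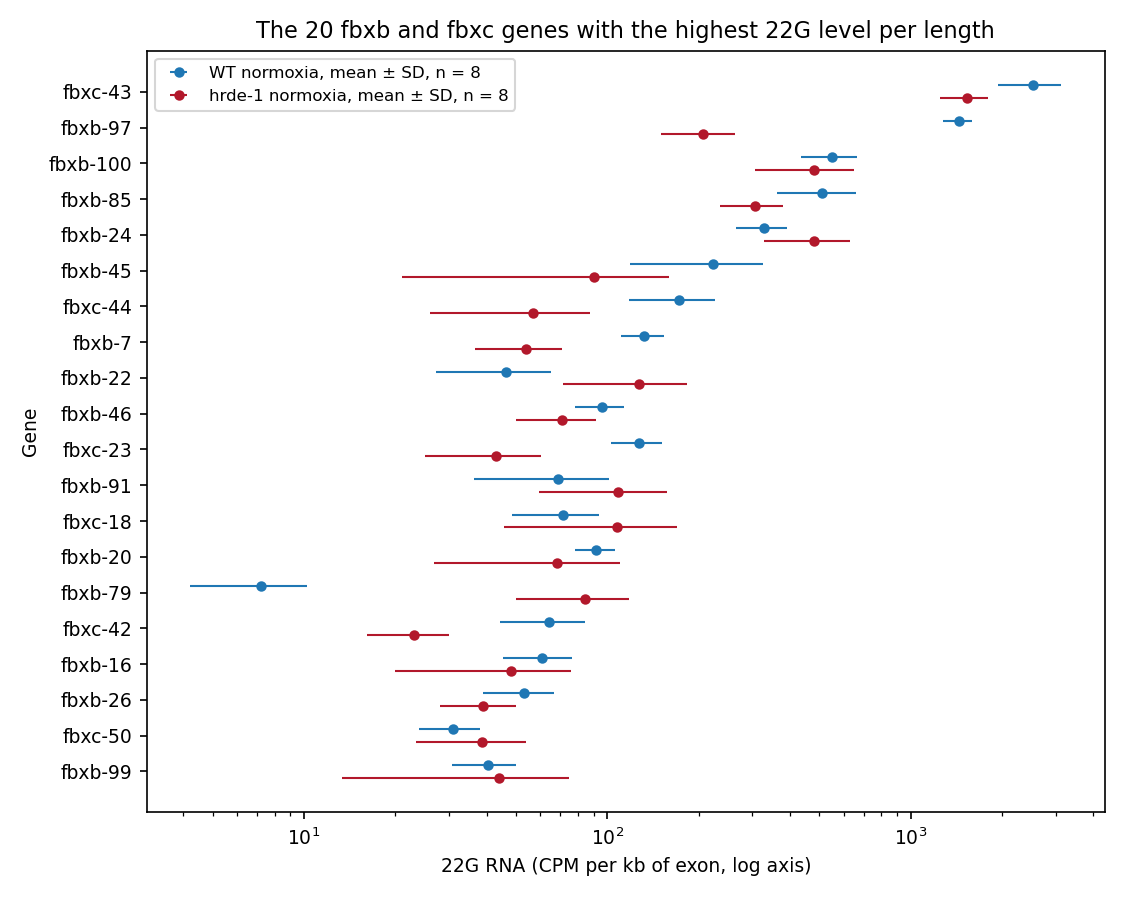
Mean 22G level per length (CPM per kb of exon, log axis) of the 20 members with the highest level, in WT normoxia and hrde-1 normoxia libraries (mean ± SD, n = 8 each). fbxb-97 lies far lower in hrde-1 (207 against 1437 CPM per kb) and fbxb-79 and fbxb-22 lie higher.

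Members sit in clusters, and the counts within a cluster were uneven. On chromosome II there were 93 members, and 95 of all members lay within 5000 bp of another, in 27 runs of neighbours. The longest run held 10 fbxc genes on chromosome IV, between 891239 and 911196, spaced in steps of 4152 or 4153 bp. In that run 5 genes had 1128 bp of exon and 5 had 1413 bp. All 628 counts of the run were on 1 gene, fbxc-4 (WBGene00019073), and the other 9 were at 0. The split of counts among these genes is uncertain, since the counting of reads with several matches is not given in the sources used here.

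The members' summed 22G RNA was lower in hrde-1 than in WT. Summed over all members, 22G RNA was 7057, 7781 and 9111 CPM (lowest, median and highest of 8 libraries) in WT normoxia and 3088, 5142 and 5421 in hrde-1 normoxia. Under hypoxia the sums were 6817, 7235 and 7824 CPM in WT and 2747, 4223 and 5276 in hrde-1. The genotypes did not overlap under either label. Each set of 8 libraries holds a pair from each of the successive generations. They are not independent lines, and an SD over them also holds differences between generations. In WT normoxia the F2 pair may not be a separate measurement. The mean in hrde-1 was 0.591 of WT in normoxia (4660 ± 969 against 7890 ± 747 CPM, SD, n = 8) and 0.570 in hypoxia (4138 ± 862 against 7259 ± 391). The fbxb sum (0.584 and 0.570 of WT) and the fbxc sum (0.600 and 0.571) were alike in this. Without fbxb-97 the ratios were 0.707 and 0.679, and without fbxb-97 and fbxc-43 they were 0.777 and 0.782. Scaled to the total of all 4 small RNA classes (counts per 1e6, no TMM), the normoxia genotypes overlapped (488 to 3010 in WT, 658 to 1866 in hrde-1) and the hypoxia genotypes did not (2367 to 3924, 910 to 2034).

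**Figure D2:**
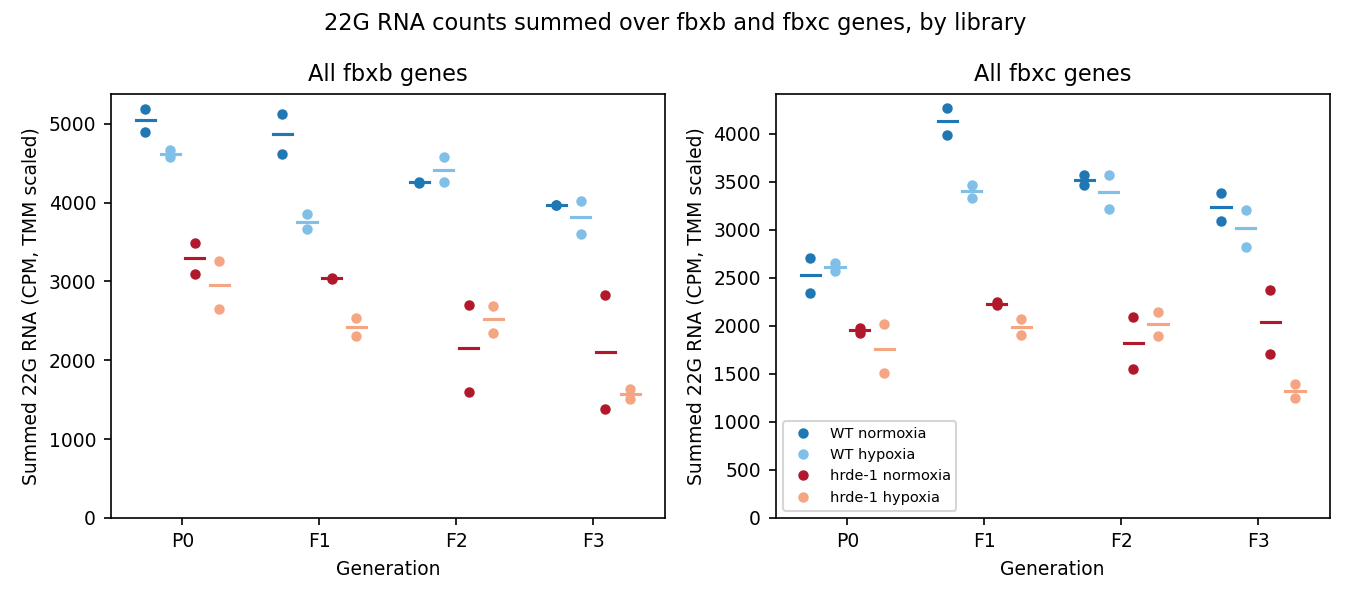
22G RNA summed over all fbxb genes (left) and all fbxc genes (right) in each library, in CPM after TMM scaling, by generation, genotype and oxygen label, with points for libraries and lines for group means (n = 2). The hrde-1 libraries lie below the WT libraries of the same generation in both families.

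Gene by gene, edgeR's quasi-likelihood F test with the generation as a term (8 against 8 libraries) called 31 of 65 tested members in normoxia, 4 higher and 27 lower in hrde-1. Over all genes tested 28.0% were called, 16.3% lower and 11.7% higher. In hypoxia 32 of 67 members were called, 6 higher and 26 lower, where 38.1% of all genes were called, 20.1% lower and 18% higher. The median log2 fold change of the tested members was -0.73 in normoxia (all genes -0.18) and -0.84 in hypoxia (all genes -0.02). These comparisons share no library. Of 60 members tested in both, 25 were called in both and in the same direction, 22 lower and 3 higher. This is 80.6% of the normoxia calls and 78.1% of the hypoxia calls, against 77.04% and 56.95% for all genes. With the 4-class sum as library size the normoxia count was 4, 2 in each direction, where 1295 of 9279 genes were called. The hypoxia count was 37, 34 of them lower, where 3879 of 9213 genes were called. This scaling moved the median of all genes to 0.18 in normoxia and to -0.37 in hypoxia.

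**Figure D3:**
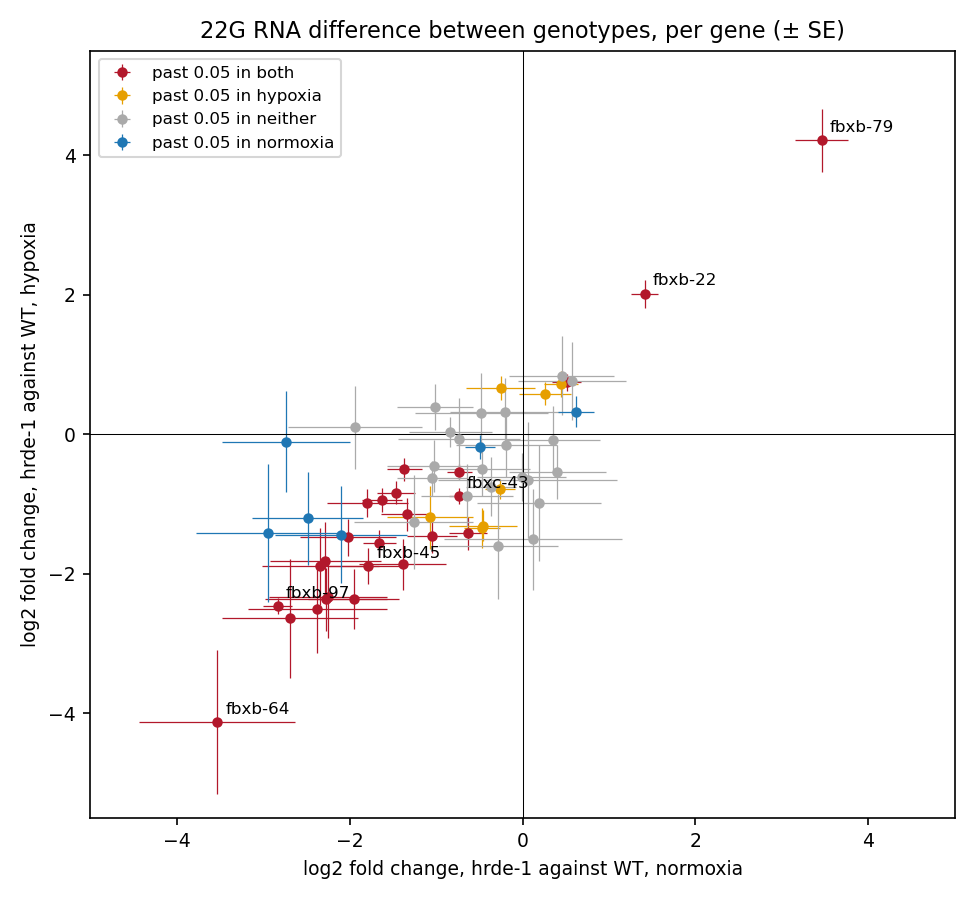
Log2 fold change of hrde-1 against WT in normoxia (x) and in hypoxia (y) for the 60 members tested in both, with bars of ± SE and colour by where the adjusted p was below 0.05. The 25 members called in both lie at the lower left (22 members) and the upper right (3 members).

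fbxb-97 carried the largest loss in counts. Its level was 1387, 1620 and 1873 CPM (lowest, median and highest of 8) in WT normoxia and 125, 241 and 299 CPM in hrde-1 normoxia. Under hypoxia it was 1462, 1567 and 1729 CPM in WT and 247, 269 and 374 CPM in hrde-1. No hrde-1 library came near a WT library. The log2 fold change was -2.83 ± 0.17 (SE, adjusted p = 1.19e-10) in normoxia and -2.46 ± 0.11 (adjusted p = 7.71e-14) in hypoxia. Over the 8 pairs of groups, 1 for each generation and label, the log2 value ranged from -2.84 to -2.27.

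fbxc-43 fell by less. It held 1515, 2603 and 3384 CPM in WT normoxia and 1168, 1535 and 1915 CPM in hrde-1 normoxia, which overlap. The P0 WT normoxia libraries, at 1931 and 1515 CPM, were the lowest of WT normoxia. Within each generation and label every hrde-1 library was below every WT library. The log2 fold change was -0.74 ± 0.12 (adjusted p = 7.32e-05) in normoxia and -0.88 ± 0.11 (adjusted p = 1.77e-06) in hypoxia. Its neighbour fbxc-44 fell in both as well, by 1.63 and 0.94 on the log2 scale.

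Other members fell in both labels over a wide range of levels. fbxc-23 held 97.7, 117 and 171 CPM in WT normoxia and 20.6, 46.6 and 61.3 CPM in hrde-1 normoxia, with no overlap. Its log2 fold change was -1.66 ± 0.19 in normoxia and -1.56 ± 0.19 in hypoxia (adjusted p = 1.58e-06 and 9.17e-07). fbxb-45 fell by 1.79 ± 0.45 and 1.89 ± 0.26 (adjusted p = 0.00652 and 1.32e-05), and fbxb-85 by 0.73 ± 0.14 and 0.54 ± 0.11 (adjusted p = 0.000601 and 0.000394). The largest fitted log2 changes were in genes with few counts. fbxb-64 had 51 counts in all WT normoxia libraries and 4 in hrde-1 (log2 fold change -3.53 ± 0.90, adjusted p = 0.00586). Under hypoxia fbxb-64 had 88 counts in WT and 3 in hrde-1, 25.4-fold fewer with a 95% counting interval of 8.42 to 126. Most of the WT counts, 37 and 34, came from the P0 WT hypoxia libraries, and both genotypes were at 0 in F3 hypoxia. Beside fbxb-64 and fbxb-97, the 8 largest falls in normoxia were in fbxb-50, fbxb-108, fbxb-47, fbxb-30, fbxb-69 and fbxb-25, with log2 fold changes from -2.95 to -2.34 and at most 55 counts each over the hrde-1 normoxia libraries. In hypoxia they were in fbxb-47, fbxb-69, fbxc-4 (WBGene00019073), fbxb-39, fbxb-72 and fbxb-25, from -2.64 to -1.89.

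A small set went the other way. fbxb-79 (IV:11188891-11189511) held 2.08, 4.49 and 6.67 CPM in WT normoxia and 28.4, 45.3 and 80.6 CPM in hrde-1 normoxia. Under hypoxia it held 0, 5.42 and 6.84 CPM in WT and 34.5, 81.3 and 122 CPM in hrde-1. Every hrde-1 library was above every WT library. The log2 fold change was 3.46 ± 0.30 (adjusted p = 3.22e-08) in normoxia and 4.22 ± 0.45 (adjusted p = 1.19e-06) in hypoxia.

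fbxb-22 (III:11882543-11883754) held 32.8, 44.6 and 91.9 CPM in WT normoxia and 82.9, 125 and 267 CPM in hrde-1 normoxia. It rose by 1.41 ± 0.15 and 2.02 ± 0.20 on the log2 scale (adjusted p = 6.9e-07 and 3.52e-08), and hrde-1 was above WT without overlap in all 8 pairs of groups. fbxb-24, which lies 25205 bp from fbxb-22, rose by 0.51 ± 0.17 and 0.75 ± 0.12 (adjusted p = 0.0295 and 4.52e-05). fbxb-91 rose in normoxia (0.62 ± 0.21, adjusted p = 0.0325) and was at 0.32 ± 0.22 in hypoxia. fbxc-18 (0.72 ± 0.18), fbxb-99 (0.66 ± 0.17) and fbxc-50 (0.58 ± 0.17) rose in hypoxia, with adjusted p from 0.00337 to 0.00931.

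The generations repeated the same order for a core of members. In 11 of the 77 members of the fit over all libraries, every hrde-1 library was below every WT library in all 8 pairs of generation and label, where 6.23% of all genes did this. They were fbxb-15, fbxb-25, fbxb-39, fbxb-45, fbxb-72, fbxb-97, fbxb-98, fbxc-23, fbxc-42, fbxc-43 and fbxc-45. The opposite held for fbxb-22 and fbxb-79, 2 members, against 4.43% of all genes. With the 4-class library size, fbxb-97 alone of the members kept the first pattern and fbxb-79 alone the second. Of 10121 genes, 200 and 264 kept them. The F2 WT normoxia columns in these pairs may not be separate measurements. This count was chosen after the values were seen.

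Calls between genotypes changed little when 1 library was left out. The normoxia count ranged from 26 to 34 and the hypoxia count from 29 to 34. Over all genes the counts ranged from 2304 of 10748 to 3246 of 10541 in normoxia and from 3136 of 10498 to 3546 of 10290 in hypoxia. Among the members, 22 of the 31 normoxia calls and 29 of the 32 hypoxia calls stood in every such fit. The normoxia calls lost in more than 4 of these fits were fbxb-69, fbxb-24, fbxb-53, fbxb-46, fbxb-15, fbxb-20 and fbxb-91, and in hypoxia fbxb-8. 22G RNA on germline genes did not move in a single direction with genotype. Summed over 39 sperm genes it was 277 to 607 CPM in WT normoxia and 50.4 to 220 in hrde-1, where 1 of 14 tested genes was called lower and none higher. In hypoxia the sperm sum was 233 to 583 CPM in WT and 84.9 to 266 CPM in hrde-1, yet 6 of 14 tested genes were called higher and 1 lower. The sum over 23 oocyte and maternal genes was 882 to 1201 CPM in WT normoxia and 868 to 1414 CPM in hrde-1, with 5 of 20 tested genes higher and 1 lower, and in hypoxia 5 were higher and 4 lower. 22G RNA on these genes is not a count of germ cells, and the part of germline content in the genotype differences was not tested.

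Other genes of the F-box system were counted in the same fits. Of 67 tested fbxa genes, the largest F-box family, 31 were lower and 4 higher in hrde-1 in normoxia (median log2 fold change -1.38), and of 66 tested in hypoxia 28 were lower and 9 higher (-0.61). Among 27 tested partners of F-box proteins (SKP1-related adaptors, cullins and their regulators, and ubiquitin genes), 2 were higher and none lower in normoxia. They were ubq-1, which encodes polyubiquitin (1.39 ± 0.22, adjusted p = 7.92e-05), and rbx-2, a RING subunit (1.22 ± 0.45, adjusted p = 0.0482). The median of these partners was 0.01. In hypoxia 1 of 28 was higher and 1 lower. Among other F-box genes with a named role, 1 of 9 was called lower in normoxia, fsn-1, which acts in synapse formation (-0.80 ± 0.24, adjusted p = 0.0187), and 3 of 10 were lower in hypoxia.

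At P0 no member passed the test between the labels. In P0 WT no member of 77 was called, where 0.711% of all genes were, and in P0 hrde-1 none was, where 0.731% were (edgeR). At an unadjusted p below 0.05 there were 2 and 5 members, against 680 and 615 of 10121 genes. DESeq2 called 0 members in each and 124 and 140 genes. The smallest p in P0 WT was that of fbxc-42, at 40.5 and 41.7 CPM in normoxia and 81.4 and 64.04 CPM in hypoxia (log2 0.82 ± 0.34, adjusted p = 0.589). Next came fbxb-45, at 371 and 438 CPM against 219 and 221 (-0.88 ± 0.38, adjusted p = 0.618). In P0 hrde-1 the smallest p were those of fbxc-18 (-1.01 ± 0.32, adjusted p = 0.255) and fbxb-20 (-1.02 ± 0.33, adjusted p = 0.26). With the 4-class library size 57 members were called higher in P0 WT, where 7494 of 10121 genes were, and the median of all genes moved to 2.70. The low 22G share of the P0 WT normoxia libraries cannot be told apart from hypoxia.

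In WT descendants fbxc-18 (II:965575-967062) was the member called in single generations. At F1 it held 124 and 80.6 CPM in normoxia and 33.5 and 24.6 CPM in hypoxia. At F2 the values were 79.9 and 71.0 against 60.6 and 58.3 CPM, and at F3 65.5 and 86.2 against 11.0 and 19.9 CPM. The hypoxia libraries were below the normoxia libraries at each generation. The log2 fold change was -1.82 ± 0.35 at F1 (adjusted p = 0.0201) and -2.32 ± 0.36 at F3 (adjusted p = 0.0113). These were the only members called at F1 WT and F3 WT, 1 of 77 each, where 0.168% and 0.346% of all genes were called and 0.0889% and 0.277% were lower. The call at F1 was lost without F1 WT hypoxia 1, F1 WT hypoxia 2 or F1 WT normoxia 1, and the call at F3 without F3 WT hypoxia 1 or F3 WT normoxia 2, with adjusted p up to 0.638 and 0.182. Without F3 WT hypoxia 2, 2 members and 272 of 11662 genes were called at F3.

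At F2 no member was called in WT or in hrde-1, and 0.0% of all genes were called in either. The WT test rests on the F2 WT normoxia columns, which may not be separate measurements. At an unadjusted p below 0.05 there were 0 and 12 members, against 164 and 850 of 10121 genes. DESeq2 called 0 and 1 members, against 14 and 58 genes. In F2 WT the smallest p were those of fbxb-45 (log2 0.48 ± 0.37) and fbxb-81 (-1.80 ± 1.48 on the log2 scale), both with an adjusted p of 1.0. In F2 hrde-1 they were fbxc-42, at 18.2 and 18.3 CPM in normoxia and 62.7 and 65.5 CPM in hypoxia (1.81 ± 0.37, adjusted p = 0.0954), and fbxb-21 (-4.79 ± 1.57, adjusted p = 0.373). Without F2 hrde-1 normoxia 1, 1 member and 82 of 11730 genes were called.

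Over F1 to F3 of WT together (6 against 6 libraries), 4 of 59 members were called, all lower under hypoxia, where 4.64% of all genes were called and 3.26% were lower. They were fbxc-18 (-1.46 ± 0.29, adjusted p = 0.014), fbxb-99 (-1.09 ± 0.25, adjusted p = 0.0217), fbxc-44 (-0.56 ± 0.15, adjusted p = 0.0417) and fbxb-20 (-0.52 ± 0.12, adjusted p = 0.0233). fbxc-18 and fbxb-20 did not overlap between the labels, and fbxb-99 and fbxc-44 did. Nor did fbxb-108 and fbxb-53 overlap, which edgeR did not call (adjusted p = 0.258 and 0.271). The share of all genes without overlap was not counted here. The F2 WT normoxia columns may not be separate measurements, so the spread of the normoxia side may be too small. fbxb-99 fell from 58.2 and 63.3 to 27.6 and 32.2 CPM at F1 and from 31.6 and 53.1 to 8.53 and 11.8 CPM at F3, and its values at F2 were 40.6 and 47.3 against 40.6 and 30.7 CPM. No member was called without F1 WT hypoxia 1, where 193 of 9692 genes were, and 2 were without F1 WT hypoxia 2, F1 WT normoxia 1 or 2, or F3 WT normoxia 1. Of the 12 fits that left out 1 library, fbxc-18 and fbxb-99 were each called in 11, fbxb-20 in 7 and fbxc-44 in 2. Of the 59 members, 51 had a negative fold change, with a median of -0.36 against -0.01 for all genes. The share of all genes with a negative value was not counted. By single generation 69, 41 and 56 of 77 members were negative at F1, F2 and F3, with medians of -0.60, -0.04 and -0.51. At an equal depth, 70.5 and 72.7 members would show a count in F1 WT hypoxia and 84.5 and 80.7 in normoxia. At F3 these values were 54.7 and 62.7 against 80.8 and 73.0, and their part was not tested. Over F1 to F3 together, 4 of 60 tested fbxa genes were lower and none higher. Among 26 partners ubq-1 (0.92 ± 0.20) and the ubiquitin-activating enzyme gene uba-1 (0.68 ± 0.18) were higher and none lower.

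The matching test in hrde-1 called no member of 49, where 0.176% of all genes were called, while DESeq2 called 2 members and 141 of 8523 genes. At an unadjusted p below 0.05 there were 8 members and 663 genes. The smallest p were those of fbxb-20 (-1.51 ± 0.36, adjusted p = 0.107) and fbxb-100 (-0.74 ± 0.22, adjusted p = 0.249). Without F2 hrde-1 normoxia 1, 2 members and 69 of 10024 genes were called. With generations as separate groups in the fit over all libraries, 8 of 77 members were called, which is near the share over all genes, 1057 of 10121. At F1 hrde-1 alone fbxb-20 was the only member of 77 called (-1.59 ± 0.36, adjusted p = 0.0427), where 0.346% of all genes were called and 0.0692% were lower. That call was lost without any 1 of the 4 libraries, with an adjusted p of up to 0.737.

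fbxb-20 (II:1649138-1650602) was lower under the hypoxia label in every generation of both genotypes. In WT it held 167 and 144 CPM in normoxia and 127 and 111 CPM in hypoxia at P0, and 127 and 111 against 60.3 and 81.4 CPM at F1. At F2 the WT values were 116 and 112 against 91.2 and 103 CPM, and at F3 141 and 124 against 88.9 and 89.7 CPM. In hrde-1 it held 182 and 186 against 77.2 and 104 CPM at P0, and 71.9 and 107 against 29.0 and 30.2 CPM at F1. At F2 the hrde-1 values were 40.7 and 59.5 against 33.4 and 22.1 CPM, and at F3 36.8 and 89.8 against 9.84 and 20.9 CPM. The labels did not overlap in any of the 8 pairs of groups. fbxb-20 was 1 of 8 genes, 0.079% of all tested, with that pattern, no member had the opposite one (0.0296% of all genes), and with the 4-class library size no gene had either. fbxb-20 was singled out after its values were seen. The gene overlaps fbxb-16 by 8 bp on the same strand and lies 269 bp from fbxb-21.

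**Figure D4:**
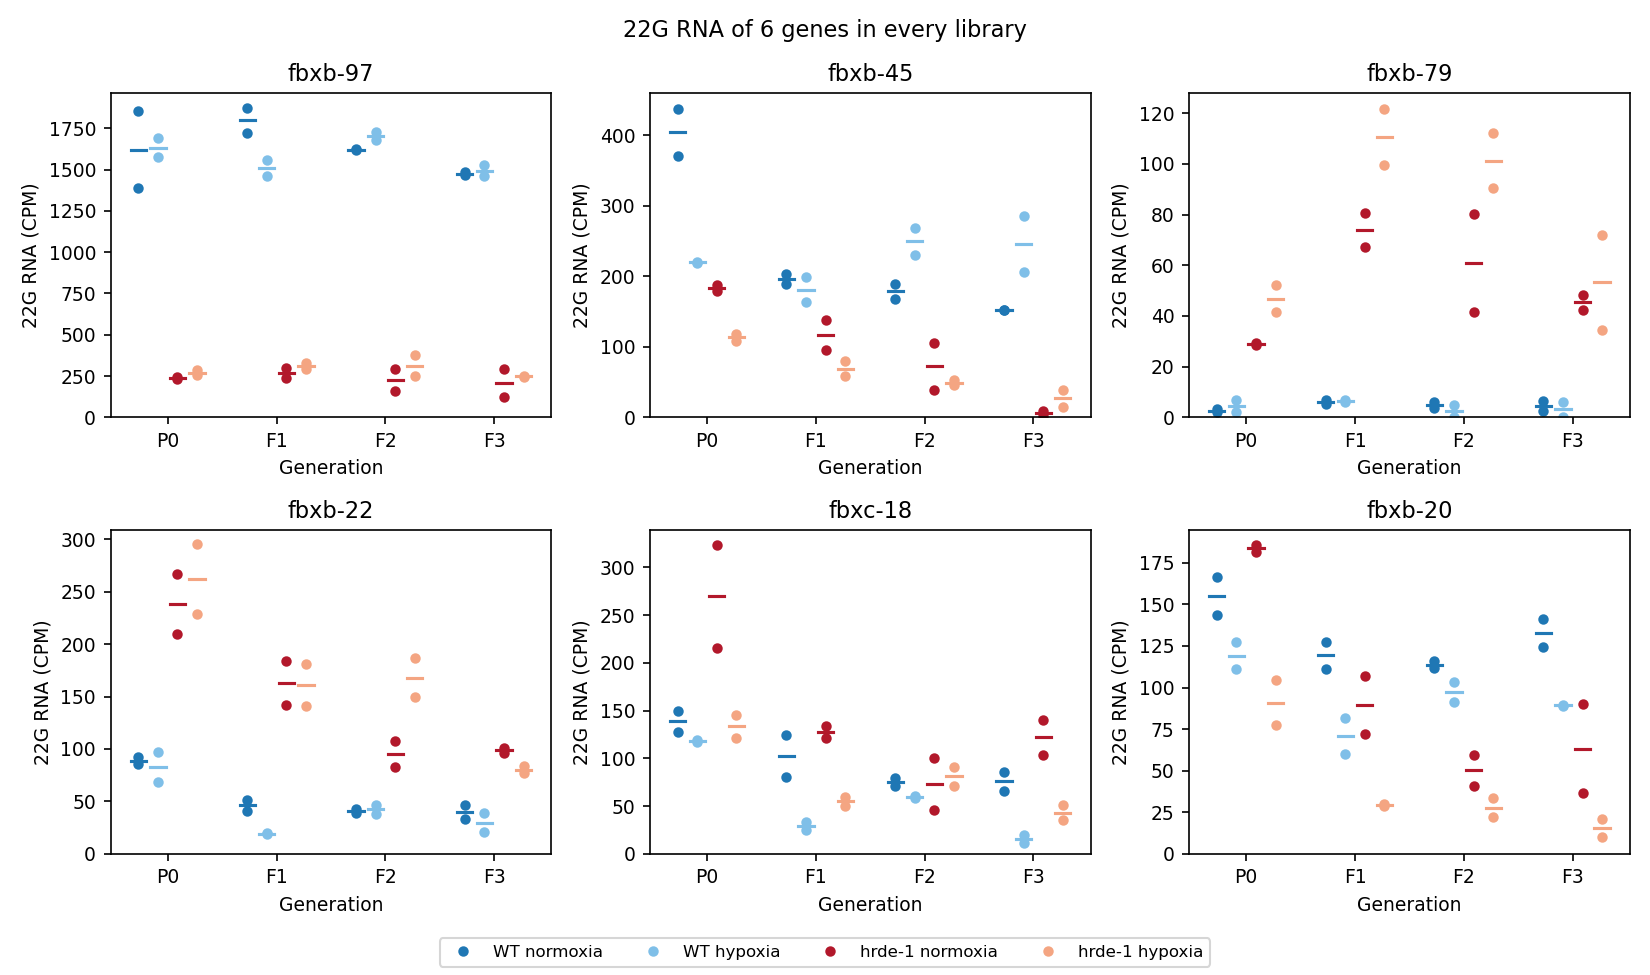
22G level (CPM after TMM scaling) of fbxb-97, fbxb-45, fbxb-79, fbxb-22, fbxc-18 and fbxb-20 in every library by generation, with points for libraries and lines for group means (n = 2). fbxb-97 splits by genotype alone, fbxb-45 falls to 9.34 and 1.71 CPM in F3 hrde-1 normoxia, and fbxc-18 and fbxb-20 are lower in hypoxia than in normoxia in most generations.

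F3 hrde-1 was the only generation and genotype with many calls, and its normoxia libraries were also the poorest in genes. Of 77 members 11 were called, 3 higher and 8 lower under hypoxia, where 21.5% of all genes were called, 15.2% higher and 6.28% lower. The falls included fbxb-20 (-2.098 ± 0.39, adjusted p = 0.000606), fbxc-18 (-1.51 ± 0.35, adjusted p = 0.00364) and fbxb-26, from 47.3 and 21.6 to 7.73 and 10.5 CPM (-1.93 ± 0.45, adjusted p = 0.00397). fbxb-51 fell from 46.7 and 29.6 to 1.41 and 6.98 CPM (-3.29 ± 0.77, adjusted p = 0.00411). fbxc-43 and fbxb-85 fell by 0.74 ± 0.19 and 0.65 ± 0.21 (adjusted p = 0.00848 and 0.0318).

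The rises were in fbxb-45, from 9.34 and 1.71 to 39.4 and 15.1 CPM (2.37 ± 0.51, adjusted p = 0.00232), and in fbxc-45, from 4.36 and 0 to 14.1 and 9.30 CPM (2.45 ± 0.70, adjusted p = 0.0162). For fbxc-26, fbxb-56 and fbxb-108 one label was at 0 and all counts of the other came from a single library. fbxc-26 was at least 7.01-fold lower (0 against 31 counts), fbxb-56 at least 5.65-fold lower (0 against 25) and fbxb-108 at least 6.88-fold higher (14 against 0). Here 3 counts over the group were the floor, and the count of the other label was taken as exact. The count of calls was 3 without F3 hrde-1 hypoxia 1 (1524 of 11638 genes), 21 without F3 hrde-1 normoxia 1 (3532 of 11556) and 24 without F3 hrde-1 normoxia 2 (2675 of 11629), and fbxb-20 alone was called in all 4 such fits. With only the 4 compared libraries no member was called, nor any of 6954 genes. Of the oocyte and maternal genes 8 of 20 tested were higher under hypoxia in F3 hrde-1 and 1 was lower, and of the sperm genes 1 of 17 was higher; their part in the calls was not tested. Among fbxa genes 11 of 73 were higher and 6 lower, and among the partners of F-box proteins 2 of 30 were higher and 2 lower.

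**Figure D5:**
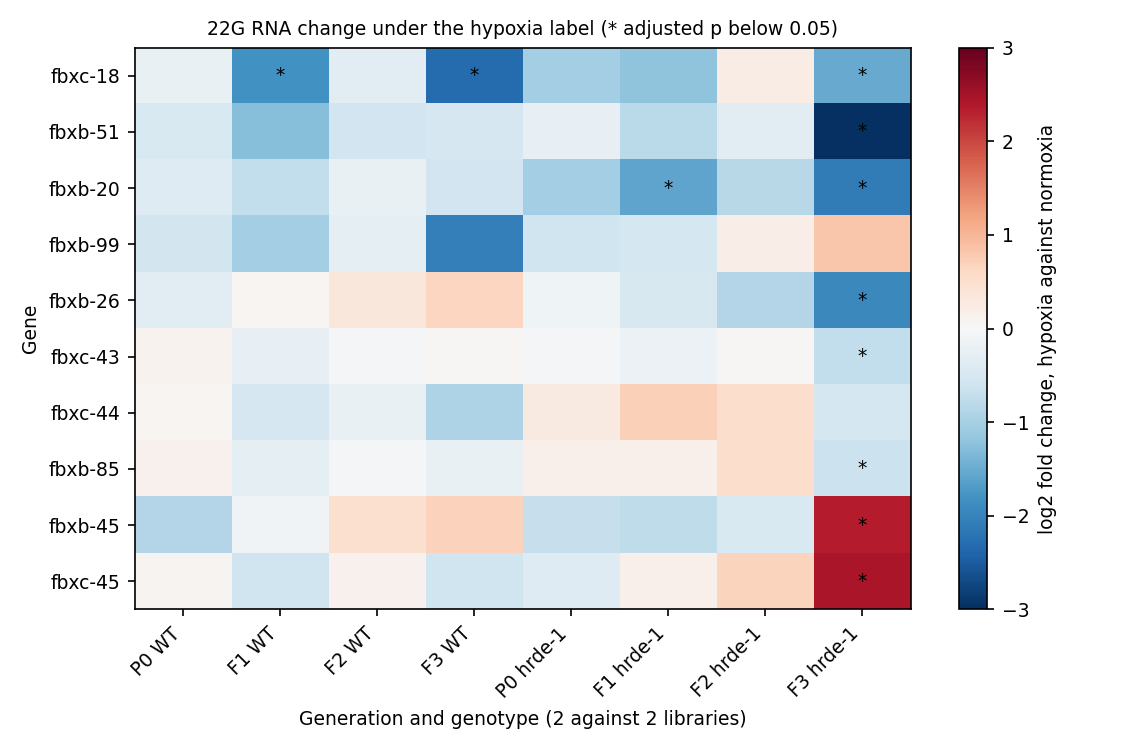
Log2 fold change of hypoxia against normoxia in each generation and genotype (2 against 2 libraries) for 10 members called in at least 1 hypoxia comparison, with stars where the adjusted p was below 0.05 and colours that stop at ± 3. The 3 members at 0 in one label at F3 hrde-1 are left out, and most stars lie in the F3 hrde-1 column.

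The response to hypoxia was compared between the genotypes directly. The difference between the responses was called for no member of 77 at P0, F1 or F2, where 0.0593%, 0.0889% and 0.0% of all genes were called, DESeq2 called 0 members at each, and 16, 107 and 41 genes. At an unadjusted p below 0.05 there were 1, 3 and 4 members, against 284, 613 and 635 of 10121 genes. At F3 it was called for 7 members, 5 higher and 2 lower in hrde-1, where 12% of all genes were called, 9.72% higher and 2.28% lower. Averaged over F1 to F3 it was also called for 7, again 5 higher and 2 lower, where 8.58% of all genes were called, 7.27% higher and 1.3% lower. fbxb-18, fbxb-40 and fbxb-93, also among these calls, rest on libraries at or near 0 counts and are described at the end.

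fbxb-26 had a lower response in hrde-1 in both (-2.58 ± 0.59 at F3, adjusted p = 0.00564, and -1.45 ± 0.33 over F1 to F3, adjusted p = 0.00827). At F3 it held 47.0 and 63.1 CPM in WT normoxia, 104 and 67.2 CPM in WT hypoxia, 47.3 and 21.6 CPM in hrde-1 normoxia and 7.73 and 10.5 CPM in hrde-1 hypoxia. Both WT hypoxia values exceeded the normoxia values, and both hrde-1 hypoxia values were below theirs. fbxb-20 had a lower response in hrde-1 over F1 to F3 (-0.99 ± 0.29, adjusted p = 0.0334) and was just outside the threshold at F3 (-1.53, adjusted p = 0.05004). fbxb-99 had a higher one (2.90 ± 0.75 and 1.30 ± 0.40, adjusted p = 0.0131 and 0.0444), as did fbxc-45 (3.04 ± 0.86 and 1.44 ± 0.45, adjusted p = 0.022 and 0.0444) and fbxb-7 (1.61 ± 0.49 and 0.97 ± 0.28, adjusted p = 0.0343 and 0.0332). For fbxc-18 the response differed by 0.81 at F3 (adjusted p = 0.309) and 0.66 over F1 to F3 (adjusted p = 0.153). The F3 count was 4 without F3 WT hypoxia 1 (897 of 11583 genes), 23 without F3 hrde-1 normoxia 1 (2998 of 11556), and 12 without F3 hrde-1 normoxia 2 or F3 WT hypoxia 2 (2012 of 11629 and 1652 of 11662). The count over F1 to F3 ranged from 2 to 17 when 1 library was left out, highest without F3 hrde-1 normoxia 1 (2280 of 11556 genes). fbxb-26 was called in every such fit of both. Over F1 to F3 the calls of fbxb-7, fbxb-20, fbxb-99 and fbxc-45 were each lost in most such fits. At F3 those of fbxb-7, fbxb-99 and fbxc-45 were each lost in some.

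Without hypoxia, the members' 22G RNA was compared between F3 and F1 within each genotype. In WT no member of 77 was called, and 0.0% of all genes were (edgeR), with 4 members and 291 of 10121 genes at an unadjusted p below 0.05. DESeq2 called 0 members and 5 genes. The smallest p were those of fbxb-85, at 1006 and 841 CPM at F1 and 538 and 593 CPM at F3 (-0.71 ± 0.21, adjusted p = 0.985), and fbxc-48 (-4.96 ± 1.998, adjusted p = 1.0).

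In hrde-1, 16 of 77 members were called and all were lower at F3, where 17.7% of all genes were called and 16.1% were lower. fbxb-45 fell from 138 and 95.8 CPM at F1 to 9.34 and 1.71 CPM at F3 (-4.41 ± 0.49, adjusted p = 1.96e-06), with 39.2 and 105 CPM at F2. fbxb-99 fell from 65.6 and 63.03 to 3.74 and 13.1 CPM (-2.91 ± 0.53, adjusted p = 0.000487). fbxc-45 fell from 20.6 and 33.7 to 4.36 and 0 CPM (-3.63 ± 0.67, adjusted p = 0.000555). fbxb-106, fbxc-28, fbxb-91, fbxc-23 and fbxb-7 fell by 3.02 to 1.11 on the log2 scale.

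The remaining 8 had no count in the F3 libraries. Taking 3 counts over the group as the floor, they were at least 12.5-fold (fbxb-21, 27 counts at F1), 11.6-fold (fbxb-72, 25 counts), 9.26-fold (fbxb-25, 20 counts), 8.33-fold (fbxb-40, 18 counts), 5.55-fold (fbxb-30 and fbxb-34, 12 counts each) and 3.70-fold (fbxc-33 and fbxc-4 (WBGene00019073), 8 counts each) lower. These folds take the F1 counts as exact. Of the 10 members with the highest levels, fbxb-45 and fbxb-7 were called and the others were not. The log2 value was -0.05 ± 0.19 for fbxc-43 (adjusted p = 0.911) and -0.37 ± 0.28 for fbxb-97 (adjusted p = 0.371). The median of the tested members was -1.11 against -0.41 for all genes.

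The F3 hrde-1 normoxia libraries used here are those of the F3 hypoxia comparison above, so the values of fbxb-45 and fbxc-45 in both rest on the same libraries. At an equal depth of 400000 counts, 46.6 and 29.8 members would be expected to show a count in these libraries, 39.7 to 81.1 in the other hrde-1 libraries and 54.7 to 95.6 in WT. The number of calls was 33 when F3 hrde-1 normoxia 1 was left out (3865 of 11556 genes), and 9 or 8 when the first or the other F1 library was (959 of 11730 and 1069 of 11781). fbxb-25, fbxb-72, fbxb-40, fbxb-45, fbxb-99 and fbxc-45 were called in every such fit, and fbxc-33 was called in none.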

How the data were processed

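Small RNA counts of 32 whole-worm libraries were used. Per the labels' protocols, 500 ng of RNA was treated with RppH at 37 °C for 30 min, so that RNA with a 5′ triphosphate could be captured. The 22G table holds raw counts per gene as deposited by the authors. In the F2 WT normoxia libraries the deposited 22G values are expected counts: 24.4% and 23.6% of the genes hold a fraction, a multiple of 1/3, and were rounded. The tools named in the submitters' processing notes are cutadapt 2.5, featureCounts, FastQC and edgeR. The aligner, build and strand setting are not given in the sources used here. Summary entries (28.1% to 36.0% of all counts) were left out of library sizes and tests. Gene names, coordinates and exon lengths come from WBcel235 (Ensembl release 115), in which 46919 IDs matched.

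Counts were tested with edgeR 4.0.16 in R 4.3.3 (TMM, filterByExpr over the groups at min.count 10, robust quasi-likelihood F test, Benjamini-Hochberg adjustment over all genes tested, threshold 0.05). Single generations, F3 against F1 and differences between genotypes in the hypoxia response came from 1 fit of 16 group means over all libraries. F1 to F3 within a genotype and hrde-1 against WT at 1 label were fitted on their own libraries with generation as a term. SE is the size of the log2 fold change over the root of F. On simulated data for P0 WT, with 8796 genes in the fit, 86.7% of genes changed by 2 on the log2 scale and 99.1% of those changed by 3 were recovered. The simulation gave every gene the same spread and changed only genes above a count limit. Its recovery therefore does not apply to members with few counts or a wider spread. Intervals cover counting error only. Floors take the count of the other group as exact, so the folds given as "at least" are not confidence bounds.

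The text names the 10 members highest per kb, in each comparison up to 8 higher and 8 lower calls by size, and the 2 smallest p where a comparison of 1 genotype had no call. Other genes named, among them fbxc-23, the members without overlap in all pairs and the falls between F1 and F3 with counts in F3, were chosen after their values were seen, as were the pair counts. The members, lists and tests were chosen with earlier results of these data known. DESeq2 1.42.0 was an alternative.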

Additional observations from a re-analysis of the deposited data

Results flagged for a closer look

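Differences between the genotypes in the hypoxia response passed the adjusted test for 7 members at F3 and for 7 averaged over F1 to F3, given here as log2 values of hrde-1 minus WT. At F3 they were -2.58 for fbxb-26, 1.61 for fbxb-7, 2.90 for fbxb-99 and 3.04 for fbxc-45. Over F1 to F3 they were -1.45 for fbxb-26, -0.99 for fbxb-20, 0.97 for fbxb-7, 1.30 for fbxb-99 and 1.44 for fbxc-45. Of these calls over F1 to F3, all but that of fbxb-26 were lost in most fits that left out 1 library. In the F3 hrde-1 normoxia libraries fbxc-45 held only 7 and 0 counts, and fbxb-99 held 6 and 23.

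The remaining differences rest on libraries at or near 0 as well, so the fitted values are no bounds. fbxb-40 was at 9.44 at F3 and 4.64 over F1 to F3, and fbxb-93 at 9.41 and 3.90. At F3 both genes had no count in the WT hypoxia and hrde-1 normoxia libraries. fbxb-40 held 7.74 and 2.498 CPM in F3 WT normoxia and 0.703 and 1.16 CPM in F3 hrde-1 hypoxia. fbxb-93 held 4.76 and 6.25 CPM and 1.41 and 0 CPM. fbxb-18 was at -7.45 at F3, with 30.5 and 0 CPM in the hrde-1 normoxia libraries, and at 0.02 without F3 hrde-1 normoxia 1. All of these F3 values share the F3 hrde-1 normoxia libraries, in which 50 and 31 members had a count, and the part of that in the differences was not tested.

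One library lay apart from the others of its group. The 22G level of fbxc-50 was 17.1 CPM in P0 WT normoxia 1, the lowest of the 8 WT normoxia libraries, where the others held 33.3 to 42.6 CPM. This was 1 of 76 checks over 19 quantities, and chance gives about 1 in 20. That library had the second lowest 22G share of all, 9.27%, and the part of that share in the value was not tested.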

How the results depend on the processing

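Counts of called members are given for hypoxia against normoxia unless named. With the 4-class sum as library size they were 57 in P0 WT, 0 in F1 WT, F1 hrde-1 and F3 WT, 2 in F1 to F3 WT, 24 for the difference between genotypes at P0 and 2 over F1 to F3, and 4 for hrde-1 against WT in normoxia. Of 10121 genes, 7496 were called in P0 WT, 9 in F1 WT, 1 in F1 hrde-1 and 0 in F3 WT. For the difference at P0 the count was 3919 of 10121 genes. In F1 to F3 WT 329 of 8485 genes were called, and in normoxia between genotypes 1295 of 9279. No member was then lower under hypoxia in all 8 pairs (0), nor was any of 10121 genes. Against WT, 1 member was lower and 1 higher in hrde-1 in all 8 pairs, where 200 and 264 of 10121 genes were. Under this setting fbxb-45 in P0 WT reversed to 1.83. DESeq2's Wald test gave 2 in F1 WT, 2 in F1 hrde-1, 1 in F2 hrde-1, 4 in F3 WT, 2 in F1 to F3 hrde-1, and 11 and 12 for the differences at F3 and over F1 to F3. Of 10121 genes it called 69 in F1 WT, 122 in F1 hrde-1, 58 in F2 hrde-1 and 301 in F3 WT. In F1 to F3 hrde-1 it called 141 of 8523 genes. DESeq2 size factors gave 0 in F1 hrde-1, where 32 of 10121 genes were called. No filter on low counts gave 2 in F1 hrde-1, F3 WT and F1 to F3 hrde-1 and 4 for the difference over F1 to F3. Over all genes it gave 126 of 22824 in F1 hrde-1, 229 of 22824 in F3 WT and 137 of 17622 in F1 to F3 hrde-1. Fitting only the compared libraries gave 7 in P0 WT, 2 in P0 hrde-1, 7 in F1 WT, 5 in F1 hrde-1 and 0 in F3 WT and F3 hrde-1. All genes called in these fits were 780 of 7061 in P0 WT and 229 of 7736 in P0 hrde-1. They were 392 of 7437 in F1 WT, 388 of 7118 in F1 hrde-1, 0 of 7731 in F3 WT and 0 of 6954 in F3 hrde-1. Without the F3 libraries the counts were 1 in P0 WT, 3 in P0 hrde-1, 2 in F1 WT, 5 in F1 hrde-1, 2 in F2 hrde-1, 2 in F1 to F3 WT and 4 for the difference over F1 to F3. Of 9302 genes, 207 were called in P0 WT, 320 in P0 hrde-1, 77 in F1 WT, 272 in F1 hrde-1 and 169 in F2 hrde-1. In F1 to F3 WT 479 of 7866 genes were called. The 16-group fit gave 2 in F1 to F3 WT and 8 in F1 to F3 hrde-1, where 146 and 1057 of 10121 genes were called. For the differences at F3 and over F1 to F3, the counts over all genes in these settings are not given here. Their member counts therefore cannot be set against a share over all genes. The causes were not tested.

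Leaving out 1 library gave 0 to 0 in P0 WT, P0 hrde-1, F2 WT, F3 against F1 in WT and the differences at P0, F1 and F2, 0 to 1 in F1 WT and F2 hrde-1, 0 to 0 in F1 hrde-1, 0 to 2 in F3 WT and F1 to F3 hrde-1, and 0 to 5 in F1 to F3 WT. It gave 3 to 24 in F3 hrde-1, 4 to 23 for the difference at F3, 2 to 17 over F1 to F3, 8 to 33 for F3 against F1 in hrde-1, and 26 to 34 and 29 to 34 between genotypes. The difference of fbxb-18 at F3 ranged from -9.98 to 0.019 and reversed without F3 hrde-1 normoxia 1.

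Replicate numbers were not shown to pair libraries (correlations of deviations from -0.01 to 0.04). With the replicate block 30 and 31 members were called between genotypes, 11 in F3 hrde-1, 16 for F3 against F1 in hrde-1, and 6 and 8 for the differences at F3 and over F1 to F3. Over all genes 2513 of 9279 and 3448 of 9213 were called between genotypes, and 2066 of 10121 in F3 hrde-1. For F3 against F1 and for the differences with the block, the count over all genes is not given here. Members that did not pass the filter on low counts did not enter the reported tests.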
